A study of Mus musculus with 10 samples.

Results

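The genes described here are 10 genes of insulin signalling and its FOXO arm in mouse brown fat, namely Insr, Irs1, Irs2, Pik3r1, Pik3ip1, Akt2, Foxo1, Foxo3, Trarg1 and Pck1. They were taken by symbol from the deposited table of 26863 genes, each matched 1 row, and all 10 passed the filter that left 15301 genes for testing (a mean of at least 10 normalised counts over the 10 libraries). The tissue was the brown fat depot between the shoulder blades, called intrascapular in the labels, sampled 1 h after CNO (clozapine-N-oxide, a drug used to activate designer receptors) was given. The PnocCre group (n = 5 libraries) and the Wildtype group (n = 5 libraries) both received CNO. By the series' description, neurons of the medial preoptic area of the brain that express Pnoc were activated, so the question is how the brown fat of PnocCre animals differed from that of Wildtype animals. In PnocCre the recombinase Cre is expressed from the Pnoc gene. The sources used here do not give the receptor, whether Wildtype animals carried it, or age and sex. Since no label ties each library to an animal of its own, p-values reflect only how far these libraries spread, which may be technical.

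Insulin binds its receptor on the cell surface, a tyrosine kinase that marks adaptor proteins of the IRS family. These recruit phosphoinositide 3-kinase, whose lipid product activates the kinase AKT. In fat cells AKT sends vesicles with the glucose transporter GLUT4 to the surface and phosphorylates FOXO transcription factors, which then leave the nucleus. When insulin is low, FOXO proteins return and activate genes that include several of the pathway's own parts, so the transcript levels of these genes can follow the nutritional state. Brown fat takes up glucose strongly in response to insulin as well as to cold.

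Libraries held 21304238 to 29171787 recovered reads. All 10 brown adipocyte markers on the list used here (among them Ucp1, Cidea and Elovl3) were detected, with a sum of 144812 to 178324 normalised counts in PnocCre and 190219 to 235248 in Wildtype, so the labelled tissue was present in every library. Other tissues were present too. The 21 skeletal muscle markers summed to 10034 to 229242 normalised counts in PnocCre and 2296 to 30318 in Wildtype, and all 21 had a higher mean log2 level in PnocCre. PnocCre replicate 2 stood apart in lymphocyte markers, with a mean log2 level of 8.86 where the other PnocCre libraries had 2.43 to 4.25 and Wildtype had 2.89 to 3.34. In bulk tissue, fewer cells of a type and less RNA per cell cannot be told apart.

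None of the 10 genes passed limma's test of PnocCre against Wildtype at an adjusted p under 0.05, and 0 of the 15301 genes tested did (0%). edgeR's quasi-likelihood test also called 0 genes, with 2733 genes and 1 member at an unadjusted p under 0.05. Among the 10 members the widest difference was that of Pik3ip1, an inhibitor of phosphoinositide 3-kinase, with a log2 fold change of 1.50 (SE 0.45). DESeq2 called it and no other member, 1 of 10, where it called 575 of 16733 genes (3.44%). Pik3ip1 and Akt2 had an unadjusted limma p under 0.05, 2 of 10 members, where 17.0% of the genes tested had one. For all 10 members the values of the groups overlapped, and over the genes tested they failed to overlap for 4.40%. Of the members 5 had a fold change above 0 and 5 below, with a median log2 fold change of -0.034, while the median over all genes tested was -0.0062 and 49.3% of them lay above 0. Several of the members varied widely between libraries of the same genotype. The SD of the log2 level within groups was above the 90th percentile of all genes tested (0.74) for 4 of them, Pik3r1, Irs2, Irs1 and Pik3ip1, while the median gene had 0.31.

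**Figure D1:**
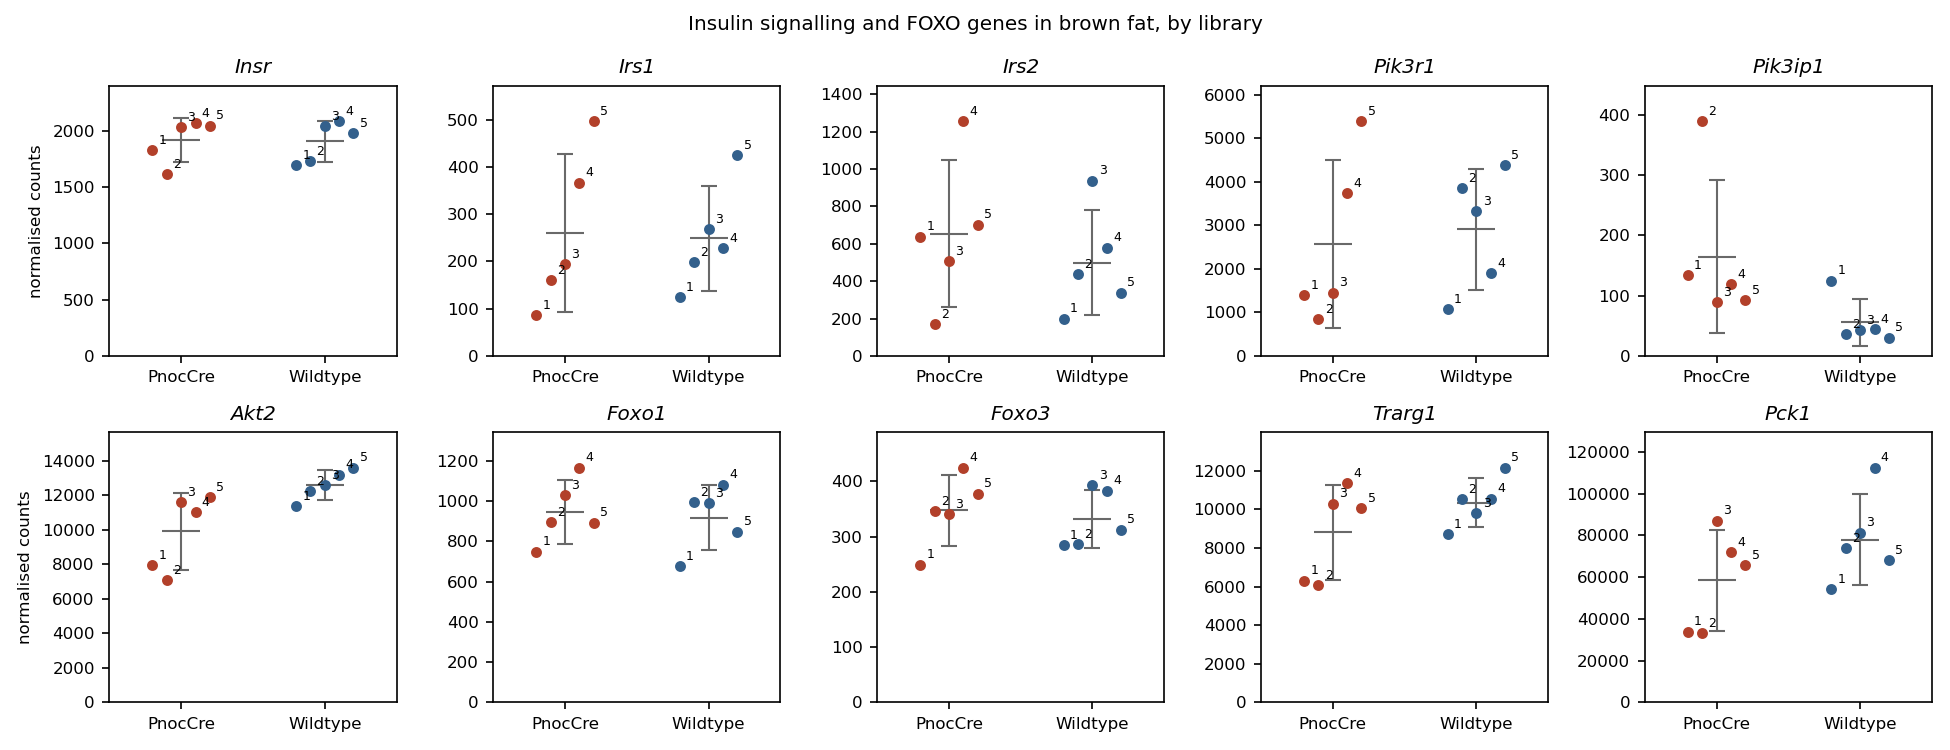
Normalised counts of each gene (vertical axes, starting at 0) in the 5 PnocCre libraries (red, left) and the 5 Wildtype libraries (blue, right), numbered by replicate, with the mean and SD as bars. The groups overlap for all 10 genes, and Pik3ip1, Irs2, Pik3r1 and Irs1 range more than 5-fold across libraries while Insr stays between 1613 and 2084.

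**Figure D2:**
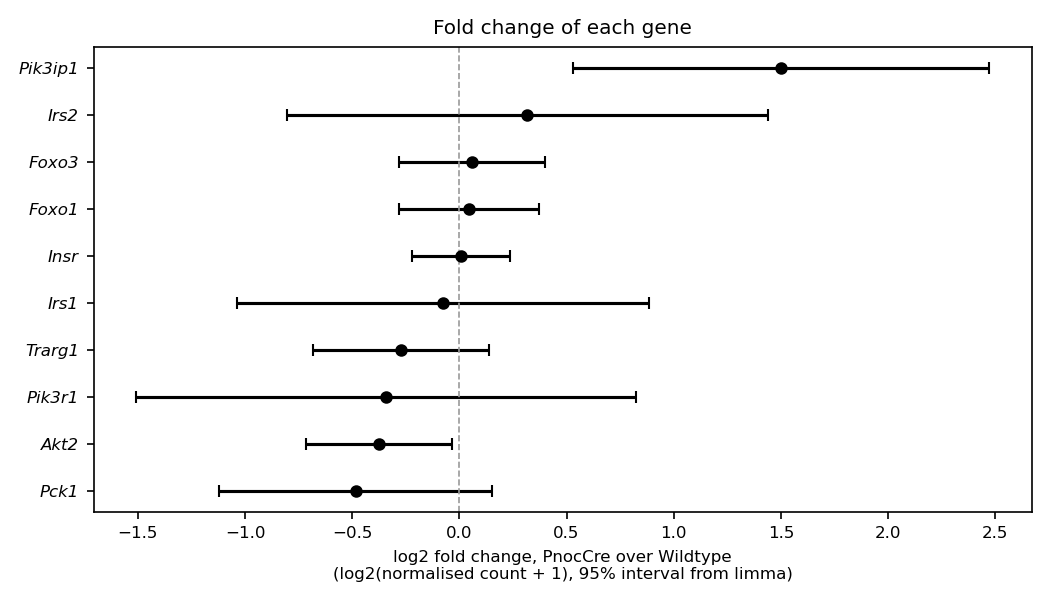
Log2 fold change of each gene, PnocCre over Wildtype, with its 95% interval from limma (horizontal axis). The intervals of Pik3ip1 (above 0) and Akt2 (below 0) leave out 0 before adjustment over all genes tested, and those of Irs1, Irs2 and Pik3r1 are wide.

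Insr encodes the insulin receptor (ENSMUSG00000005534, chromosome 8, 3172061 to 3329617, minus strand, GRCm39). It had 1829.7, 1613, 2032, 2069.7 and 2045 normalised counts in PnocCre replicates 1 to 5, against 1696, 1729, 2041, 2084 and 1976 in Wildtype replicates 1 to 5. The groups covered nearly the same range. PnocCre libraries averaged 1918 ± 196 and Wildtype libraries 1905 ± 180.4 (SD over 5 libraries here and below), and the log2 fold change was 0.0086 with a 95% interval from -0.22 to 0.24 (limma adjusted p 0.970). That interval runs from a fold of 0.859 to 1.18, so these libraries allow only small differences in either direction. Of the members Insr also varied least, with a within-group SD of 0.15 on the log2 scale that lay at percentile 12.6 of the genes tested. The 3 genes whose pattern over the 10 libraries was nearest to it were Rad21, Ireb2 and Ube2q2, with a root mean square difference of 0.059 to 0.063 on the centred log2 scale, where the median gene with a mean of at least 50 counts differed by 0.27.

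Irs1 and Irs2 encode the adaptors that link the receptor to phosphoinositide 3-kinase, and Irs2 is a gene that FOXO factors activate and insulin represses in liver. The stretch of 130 bases before each RefSeq start site is shown because these are the only members, of 8 matched by symbol, with an insulin response element in the 250 bases before the start (both strands, build GRCm38.p6). Capitals mark the insulin response element TGTTTTG and the E-box CACGTG, a site read by basic helix-loop-helix factors. Irs2 lies at chr8:11008930-11009059 and Irs1 at chr1:82291440-82291569, both on the minus strand.
Irs2: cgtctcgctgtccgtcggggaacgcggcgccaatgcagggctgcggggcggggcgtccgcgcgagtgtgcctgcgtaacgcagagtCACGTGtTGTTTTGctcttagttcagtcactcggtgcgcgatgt
Irs1: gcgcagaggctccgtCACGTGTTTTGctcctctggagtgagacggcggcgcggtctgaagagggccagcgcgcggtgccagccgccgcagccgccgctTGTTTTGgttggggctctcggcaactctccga
Both stretches hold an E-box beside TGTTTTG. In Irs2 the E-box starts 44 bases before the start site and TGTTTTG 37 bases before it, and in Irs1 they start at 115 and 111 bases and overlap, with another TGTTTTG at 32 bases. TGTTTTG was present in 5.60% of 32536 promoter windows of this length and CACGTG in 6.04%, and the FOXO element GTAAACA (3.17% of windows) was in none of the members' windows. The bases that follow the RefSeq start of Irs1 and Irs2 are in no GENCODE transcript of the gene used here, so these distances hold for the RefSeq start only. These matches describe letters and say nothing of binding.

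Irs2 (ENSMUSG00000038894, chromosome 8, 11034681 to 11058458, minus strand) had 638, 169.8, 506, 1256 and 703 normalised counts in PnocCre, against 199, 437, 939, 580.1 and 339 in Wildtype, in replicate order. PnocCre replicate 4 and Wildtype replicate 3 were highest, and PnocCre replicate 2 and Wildtype replicate 1 were lowest, so each group held both extremes. The log2 fold change was 0.32 (SE 0.51, 95% interval -0.80 to 1.44, limma adjusted p 0.757). The highest library had 7.40 times the lowest, and the within-group SD of 0.95 exceeded that of 94.5% of the genes tested. Nearest in pattern were Trib1, a pseudokinase, Gk5 and Fosl2, an AP-1 factor, at 0.44 to 0.47 on the centred log2 scale, where the median gene differed by 0.89.

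Irs1 (ENSMUSG00000055980, chromosome 1, 82210822 to 82269137, minus strand) had 86.6, 159.8, 195, 367 and 497 normalised counts in PnocCre, against 125, 198, 268, 228 and 424 in Wildtype. The order of the libraries differed from that of Irs2. PnocCre replicate 5 and Wildtype replicate 5 were highest, while Irs2 was 703 and 339 in those libraries. Irs1 averaged 261 ± 167 in PnocCre and 249 ± 111 in Wildtype, and the log2 fold change was -0.077 (SE 0.44, 95% interval -1.04 to 0.89, limma adjusted p 0.938). The interval spans a fold of 0.487 to 1.85, so differences up to those sizes in either direction are not excluded. Atg9a, Fhip1a and Wnt5a were nearest in pattern (0.24 to 0.30, where the median gene differed by 0.77).

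Pik3r1 encodes the regulatory subunit p85-alpha and its shorter forms, which hold phosphoinositide 3-kinase at the IRS proteins (ENSMUSG00000041417, chromosome 13, 101817071 to 101904725, minus strand). It had 1399, 852, 1454, 3737 and 5390.5 normalised counts in PnocCre, against 1067, 3849.8, 3329, 1899 and 4385 in Wildtype. High and low libraries stood in both groups, with nothing between 1899 and 3329. The log2 fold change was -0.34 (SE 0.53, 95% interval -1.51 to 0.83, limma adjusted p 0.749), and the within-group SD of 0.98 was the widest of the 10 members. Its nearest genes were Fer1l6, Pstpip2 and Hykk, at 0.20 to 0.27 where the median gene differed by 0.91. Among the pairs that Pik3r1 forms with the other members, it was nearest to Irs1 (0.51).

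Pik3ip1 encodes a membrane protein that binds the catalytic subunit of phosphoinositide 3-kinase and restrains it and is also expressed in T lymphocytes. It lies on chromosome 11 (3280401 to 3292971, plus strand, ENSMUSG00000034614). It had 134, 389, 89.3, 119 and 93.1 normalised counts in PnocCre, against 125, 36.6, 43.2, 44.3 and 30.2 in Wildtype. All 5 PnocCre libraries lay above Wildtype replicates 2 to 5, and Wildtype replicate 1 lay among them, above 3 of the 5. PnocCre libraries averaged 165 ± 127 and Wildtype libraries 55.9 ± 39.1. With limma the log2 fold change was 1.50 (SE 0.45, 95% interval 0.53 to 2.47, adjusted p 0.163), a fold of 2.83 that ranged from 1.44 to 5.55 over the interval. DESeq2 on the recovered reads gave 1.55 with an adjusted p of 0.0364, the authors' deposited table gives the same log2 fold change of 1.55 with an adjusted p of 0.0364, and edgeR's quasi-likelihood test gave 1.58 with an adjusted p of 0.180.

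The size of the Pik3ip1 difference moved most with PnocCre replicate 2. With PnocCre replicate 2 left out, where lymphocyte markers were high, its DESeq2 log2 fold change was 0.95 (adjusted p 0.224), and limma gave 1.13 (adjusted p 0.284). Leaving out PnocCre replicate 1 gave a DESeq2 log2 fold change of 1.62 (adjusted p 0.0528). Without Wildtype replicate 2, 3, 4 or 5 it was 1.43 (adjusted p 0.126), 1.47 (0.0985), 1.48 (0.120) and 1.40 (0.118). Apart from the fit without PnocCre replicate 2, the fold change thus stayed near that of all libraries in these fits. The adjusted p was above the threshold of 0.05 in all of them. Without Wildtype replicate 1 the DESeq2 value was 2.10 (adjusted p 6.31e-04). That library was the only Wildtype library within the PnocCre range, so leaving it out alone ended the overlap of the groups. With both PnocCre replicate 2 and Wildtype replicate 1 left out DESeq2 gave 1.49 (adjusted p 1.37e-05) and limma 1.47 (adjusted p 0.136). This setting was chosen after the data were seen, and it drops the libraries that lay far from their groups for Pik3ip1 itself. The loss of overlap followed from leaving out Wildtype replicate 1, so the adjusted p-values of fits without it carry no weight as a test. The 12 lymphocyte markers all had a higher mean in PnocCre, with sums of 90.1 to 6160.3 normalised counts against 111 to 159 in Wildtype, and none was at 0 in all libraries. The sum of 6160.3 was that of PnocCre replicate 2. PnocCre replicate 5 had 90.1, below every Wildtype library, and PnocCre replicate 4 lay within the Wildtype range. Means were also higher in PnocCre for 9 of 10 macrophage, 12 of 12 fibroblast and preadipocyte and 10 of 10 endothelial markers. The same held for 21 of 21 skeletal muscle and 8 of 8 white adipocyte markers. Means were lower for 10 of 10 brown and 9 of 10 general adipocyte markers. Mean log2 levels of the macrophage markers were 7.14 to 7.60 in PnocCre and 6.84 to 7.04 in Wildtype. The part of lymphocytes or of any other cell type in the difference of Pik3ip1 over all libraries was not tested. The fewest reads behind any member's value were 26, for Pik3ip1. Hmgb2, Gvin-ps7, a pseudogene whose counts are uncertain because it has close copies, and Sp110 had the nearest pattern (0.37 to 0.42, where the median gene differed by 1.10).

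Before the start site of Pik3ip1, at chr11:3330601-3330730 on the plus strand of GRCm38.p6, the 130 bases are shown because it was the member with the largest fold change. None of the 4 motifs searched (the FOXO element, the insulin response element, the E-box and the cyclic AMP element core) was in its window of 250 bases.
Pik3ip1: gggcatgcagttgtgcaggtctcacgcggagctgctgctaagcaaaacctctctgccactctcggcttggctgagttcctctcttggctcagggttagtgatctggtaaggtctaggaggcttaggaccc

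Akt2 encodes the AKT form that carries the insulin signal to glucose transport in fat (ENSMUSG00000004056, chromosome 7, 27290977 to 27340251, plus strand). It had 7938, 7079, 11599, 11017 and 11879 normalised counts in PnocCre, against 11359.7, 12242, 12598, 13192 and 13586 in Wildtype. All 5 PnocCre libraries lay below the Wildtype median, and 3 of them below every Wildtype library. The log2 fold change was -0.38 (SE 0.16, 95% interval -0.72 to -0.036, limma adjusted p 0.254), and DESeq2 gave -0.35 (adjusted p 0.225), so Akt2 was called by neither. Without PnocCre replicate 2 the limma value was -0.26 and without PnocCre replicate 5 it was -0.45. Its nearest genes in pattern were all mitochondrial enzymes, Echs1 of fatty acid oxidation, Mccc2 of leucine breakdown and Coq5 of ubiquinone synthesis, at 0.040 to 0.047 where the median gene differed by 0.35. The markers of adipocytes in general were lowest in PnocCre replicates 1 and 2 as well (mean log2 levels of 14.1 and 13.9, where the other 8 libraries had 14.3 to 14.7), and 9 of those 10 markers had a lower mean in PnocCre. All 8 white adipocyte markers had a higher mean in PnocCre. The part of these marker lists in the values of Akt2 was not tested.

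Trarg1 encodes a small membrane protein of GLUT4 vesicles found mainly in fat and muscle (ENSMUSG00000046275, chromosome 11, 76570634 to 76589490, plus strand). It had 6305, 6066, 10294, 11361 and 10059 normalised counts in PnocCre, against 8700.3, 10551, 9811, 10553 and 12159 in Wildtype. PnocCre replicates 1 and 2 were the lowest libraries and the other 3 PnocCre libraries lay within the Wildtype range. The log2 fold change was -0.27 (SE 0.19, 95% interval -0.68 to 0.14, limma adjusted p 0.457). Of the 45 pairs of members, Trarg1 and Akt2 had the most similar pattern (0.12), and Foxo1 with Foxo3 came next (0.16). Ppp1r9b, Adhfe1 and Arcn1 were nearest among all genes (0.062 to 0.085, where the median gene differed by 0.38).

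Foxo1 and Foxo3 encode the transcription factors that AKT holds out of the nucleus. Foxo1 (ENSMUSG00000044167, chromosome 3, 52175757 to 52260642, plus strand) had 748, 896, 1027, 1165 and 892 normalised counts in PnocCre, against 675, 994, 989, 1081 and 848 in Wildtype. Foxo3 (ENSMUSG00000048756, chromosome 10, 42057837 to 42152751, minus strand) had 249, 346, 339.9, 424 and 377 in PnocCre, against 284, 286, 392, 383 and 313 in Wildtype. Neither gene separated the groups. The log2 fold change was 0.046 for Foxo1 (SE 0.15, 95% interval -0.28 to 0.37, limma adjusted p 0.886) and 0.059 for Foxo3 (SE 0.16, 95% interval -0.28 to 0.40, limma adjusted p 0.859). Both had a within-group SD near 0.25, below that of the median gene. Nearest to Foxo1 were Sos1, an exchange factor for RAS, the RNA Cep83os and Cast (0.11 each), and nearest to Foxo3 were Nom1, Zfr and Lnpep, an aminopeptidase of GLUT4 vesicles (0.073 to 0.099), where the median gene differed by 0.33 from either.

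Pck1 encodes the cytosolic phosphoenolpyruvate carboxykinase, which in fat makes the glycerol backbone for triglycerides from pyruvate and which insulin represses and cyclic AMP induces (ENSMUSG00000027513, chromosome 2, 172994841 to 173001066, plus strand). It had 33862, 33143, 87000.3, 72119 and 65845 normalised counts in PnocCre, against 54180.4, 73700.1, 81343, 112384 and 68045 in Wildtype. As with Trarg1, PnocCre replicates 1 and 2 were lowest and the other PnocCre libraries lay within the Wildtype range. The log2 fold change was -0.48 (SE 0.29, 95% interval -1.12 to 0.15, limma adjusted p 0.400). Pdp2, a phosphatase that activates pyruvate dehydrogenase, Cmtm4 and Acot2 were nearest in pattern (0.15 to 0.20, where the median gene differed by 0.56). The 130 bases before the start are shown (chr2:173152943-173153072, plus strand, GRCm38.p6). The reason is that, of the 8 members matched by symbol, only Pck1 had the core of the cyclic AMP element, ACGTCA. The core, in capitals, starts 91 bases before the start site and was in 6.50% of promoter windows.
Pck1: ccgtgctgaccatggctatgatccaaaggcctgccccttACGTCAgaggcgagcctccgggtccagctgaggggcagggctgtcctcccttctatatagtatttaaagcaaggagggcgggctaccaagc

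A set of libraries recurred across these genes and cut across the genotypes. PnocCre replicate 1, PnocCre replicate 2 and Wildtype replicate 1 were the 3 lowest of the 10 libraries for Pik3r1, Irs1, Trarg1 and Pck1, and the 3 highest for Pik3ip1. For Pik3r1 the step to the next library was small (1399 against 1454), and for Pck1 it was wider (54180.4 against 65845). The same 3 libraries had the highest mean log2 level of the endothelial markers, 11.2, 11.1 and 11.0, where the next was 10.6. Their lymphocyte levels were 4.25, 8.86 and 3.25, and their skeletal muscle levels 7.32, 9.49 and 2.74, so those lists did not share the order. Markers of adipocytes in general came near it in the low direction. They were lowest in PnocCre replicates 2 and 1 (13.9 and 14.1), then PnocCre replicate 4 (14.3), then Wildtype replicate 1 (14.4). The pattern of these 3 libraries was noticed in the values, so it carries no test. The part that cell composition plays in it was not tested. The other 5 members, Insr, Irs2, Akt2, Foxo1 and Foxo3, followed it only in part. PnocCre replicate 2 and Wildtype replicate 1 were among the 3 lowest libraries for Insr and Irs2. For Akt2 PnocCre replicates 1 and 2 were, and for Foxo1 and Foxo3 PnocCre replicate 1 and Wildtype replicate 1. For Irs2, PnocCre replicate 1 had 638, the fourth highest value.

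The numbers in the library names also set these 3 libraries together when parted at wide gaps, whose least size was chosen here. The libraries then fall into a run of 5 (PnocCre replicates 3 and 5 and Wildtype replicates 2, 3 and 4) and a run of these 3. The remaining 2 are single libraries of 1 genotype each. A smaller least gap would first part PnocCre replicate 1 from the run of 3. The labels do not say what the numbers mean. Within the run of 5, Pik3ip1 had a mean log2 level of 6.53 in PnocCre and 5.40 in Wildtype, a difference of 1.13. Within the run of 3 it had 7.84 in PnocCre and 6.98 in Wildtype, a difference of 0.86. That run holds 1 Wildtype library, with 125 normalised counts, beside 134 in PnocCre replicate 1 and 389 in PnocCre replicate 2. Akt2 differed by -0.11 within the run of 5 and -0.60 within the run of 3, and Pck1 by -0.21 and -0.69. The sign was not the same in both runs for Irs1 (0.44 and -0.088), Irs2 (-0.055 and 0.72), Pik3r1 (-0.049 and 0.033) and Foxo1 (-0.093 and 0.28). It was the same for Trarg1 (-0.017 and -0.49), Insr (0.068 and 0.019) and Foxo3 (0.031 and 0.048). All differences within the run of 3 rest on its 1 Wildtype library. With a term for these runs, chosen after the data were seen, DESeq2 still called Pik3ip1 (log2 fold change 1.11, adjusted p 0.0348), and limma gave 1.03 (adjusted p 0.167).

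**Figure D3:**
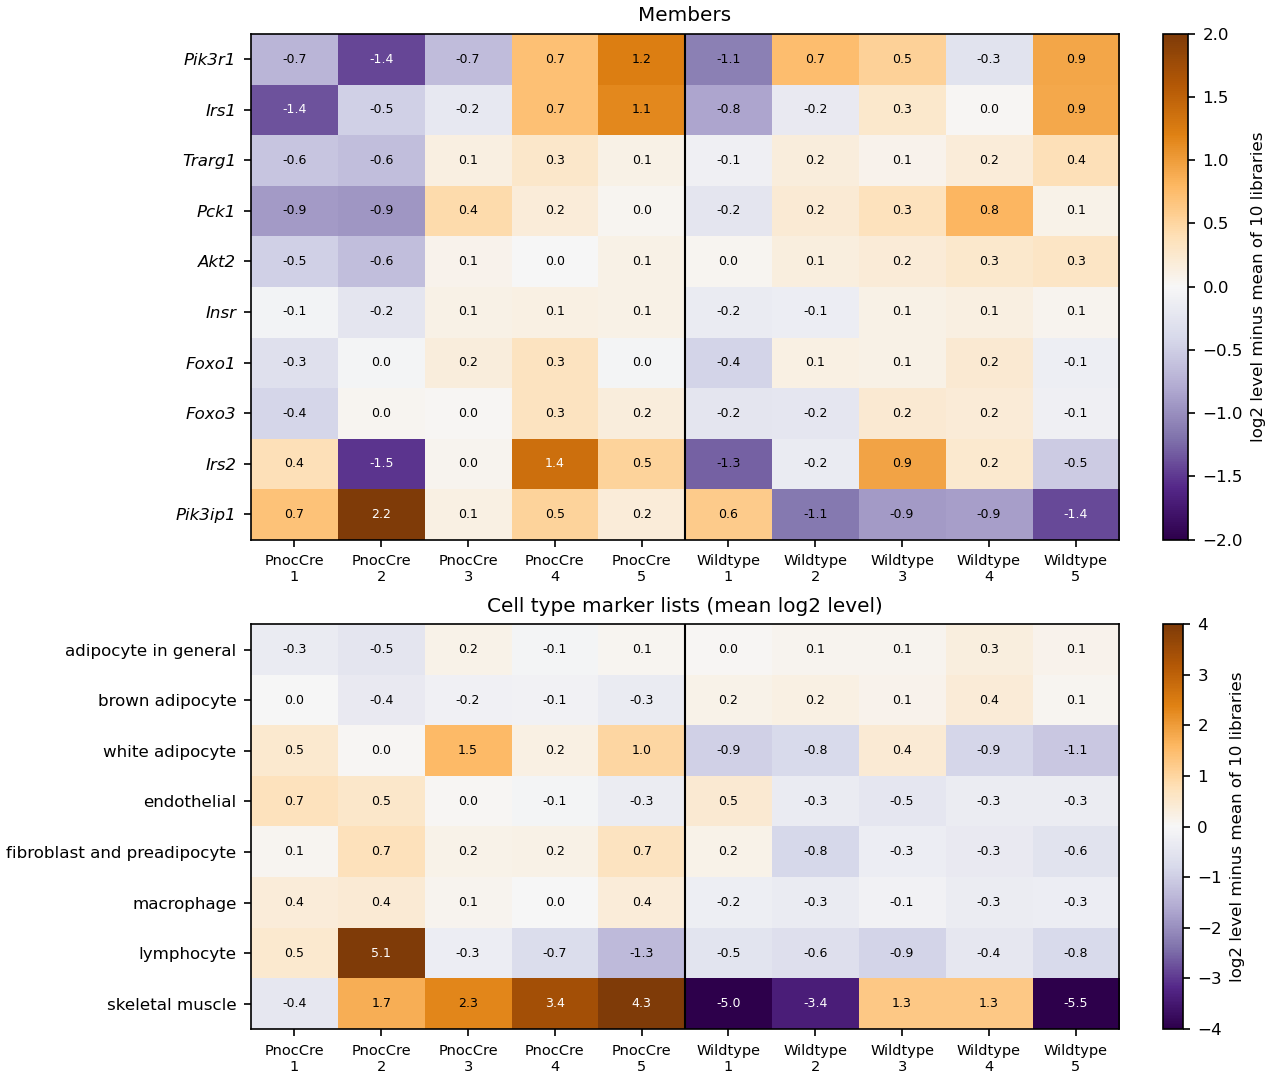
Log2 level of each gene minus its mean over the 10 libraries (upper panel) and the same for the mean log2 level of 8 lists of cell type markers (lower panel), with PnocCre libraries left of the line and Wildtype libraries right of it. Colours stop at 2 in the upper and 4 in the lower panel and the value stands in each cell. PnocCre replicates 1 and 2 and Wildtype replicate 1 are low for Pik3r1, Irs1, Trarg1 and Pck1 and high for Pik3ip1.

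Levels between genes were compared as normalised counts per kb of the deposited gene length. Pck1 was the most abundant member, at 17029 ± 6996 per kb in PnocCre and 22727 ± 6320 per kb in Wildtype. Trarg1 followed with 2670.2 ± 743 and 3136 ± 382, and Akt2 with 1389 ± 312 and 1766 ± 121. These 3 were in the same order in all 10 libraries. Below them came Pik3r1 (255 ± 191 and 288 ± 137), Insr (139.5 ± 14.2 and 138.6 ± 13.1), Foxo1 (109 ± 18.2 and 106 ± 18.4) and Irs2 (104 ± 62.4 and 78.9 ± 44.7). Foxo3 had 45.9 ± 8.49 and 43.8 ± 6.94, Irs1 28.5 ± 18.3 and 27.2 ± 12.2, and Pik3ip1 38.6 ± 29.7 and 13.1 ± 9.16. From Pik3r1 downward each gene's range overlapped that of the next, in either genotype. Insr was still above Foxo1 within each of the 10 libraries, while Foxo1 was above Irs2 in 6 of 10.

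Relatives outside the 10 genes put these levels in context on the same per-kb scale. Akt2 had a higher level than Akt1, which stood at 437 ± 36.3 per kb in PnocCre and 504 ± 57.6 in Wildtype. Among FOXO genes Foxo4 was above both members, at 394 ± 87.0 in PnocCre and 408 ± 47.1 in Wildtype, and its fold change was near 0 (log2 -0.073, limma adjusted p 0.818). Pik3r2, which encodes another regulatory subunit, had 171 ± 12.0 and 189 ± 15.1, with a within-group SD of 0.11 on the log2 scale where Pik3r1 had 0.98. Igf1r, the receptor for insulin-like growth factor 1, had 15.6 ± 3.06 and 13.4 ± 3.69.

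The other genes of the pathway were read from lists. In the rest of the insulin cascade 42 of 43 genes were tested, and 0 passed limma's test in either direction (2 higher and 7 lower at an unadjusted p under 0.05). The median log2 fold change was -0.069, with 13 genes above 0 and 29 below. DESeq2 called 2 of them, both lower, where it called 3.44% of all genes, and the 21.4% at an unadjusted p under 0.05 stood beside 17.0% of all genes tested. Sh2b1, an adaptor that sustains receptor signalling, averaged 2126 ± 154 counts in PnocCre and 2664 ± 138 in Wildtype (DESeq2 log2 fold change -0.33, adjusted p 0.0131), with groups that did not overlap. Its relative Sh2b2 had 4341 ± 860.3 and 6169 ± 839 (-0.51, DESeq2 adjusted p 0.0488), with groups that did. Mtor, the growth kinase downstream of AKT, had a limma log2 fold change of -0.60 (adjusted p 0.268), Ptpn1, the phosphatase that switches the receptor off, -0.29 (0.248), Akt1 -0.20 (0.337) and Igf1r 0.24 (0.527).

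Of the genes of GLUT4 vesicle traffic 21 were tested, 0 passed with limma or DESeq2, and the median was -0.11 (7 above 0, 14 below). Slc2a4, which encodes GLUT4 itself, averaged 11404 ± 3176 counts in PnocCre and 14327 ± 2374 in Wildtype (log2 fold change -0.36, limma adjusted p 0.348). Tbc1d4, the AKT substrate that releases GLUT4 vesicles, stood at 0.12 (adjusted p 0.682). The smallest p-values of the list belonged to Stxbp3 (0.27), Ralgapb (-0.34) and the small GTPase Rab8a (-0.18), whose adjusted p-values ran from 0.241 to 0.270.

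Among genes known as FOXO targets all 30 were tested, 10 above 0 and 20 below, with a median of -0.11. Limma passed 0 of them (3 higher and 3 lower at an unadjusted p under 0.05), and DESeq2 called 1 higher and 1 lower. The 20% at an unadjusted limma p under 0.05 stood beside 17.0% of all genes tested, and DESeq2 called 3.44% of all genes. With library weights limma called 1 of the 30, and 53 of all 15301 genes tested. Cited2, a transcriptional coregulator, averaged 245 ± 47.8 counts in PnocCre and 144 ± 17.0 in Wildtype (DESeq2 log2 fold change 0.77, adjusted p 0.0036), and its groups overlapped. Sod2, the mitochondrial superoxide dismutase, had 13009 ± 1653 and 17445 ± 624 (-0.42, DESeq2 adjusted p 0.0098), and the groups did not overlap. The mitochondrial peroxidase Prdx3 stood at -0.45 (DESeq2 adjusted p 0.0526), the cell cycle inhibitor Cdkn1b at 0.31 (DESeq2 adjusted p 0.165) and Pdk4, which shuts off pyruvate oxidation, at -0.43 (DESeq2 adjusted p 0.399).

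Genes known to be induced by insulin had the lowest median of these lists, -0.41, with 3 of 20 above 0 and 17 below. None passed with limma (0 higher and 6 lower at an unadjusted p under 0.05) or DESeq2. The 30% at an unadjusted limma p under 0.05 stood beside 17.0% of all genes tested, and DESeq2 called 3.44% of all genes. Hexokinase 2 (Hk2) averaged 8524 ± 3090.4 counts in PnocCre and 13588 ± 2960.4 in Wildtype (limma log2 fold change -0.72, adjusted p 0.188). Thrsp, a lipogenic regulator, stood at -0.40 (adjusted p 0.194), malic enzyme Me1 at -0.66 (0.211) and Srebf1, the SREBP-1 gene through which insulin drives lipogenesis, at -0.39 (0.398). Many of these are lipogenic genes of the adipocyte. Means were also lower in PnocCre for 10 of 10 brown and 9 of 10 general adipocyte markers (median differences -0.37 and -0.32). White adipocyte markers went the other way, with all 8 higher in PnocCre and a median difference of 1.36. The part of adipocyte content in the list of insulin-induced genes was not tested.

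Beside Pck1, 11 of 12 genes of glycerol metabolism and gluconeogenesis were tested, with 2 above 0 and 9 below and a median of -0.33. Limma passed 0 of them (1 higher and 3 lower at an unadjusted p under 0.05) and DESeq2 called 2, both lower. The 36.4% at an unadjusted limma p under 0.05 stood beside 17.0% of all genes tested, and DESeq2 called 3.44% of all genes. With library weights limma called 1 of the 11, and 53 of all 15301 genes tested. Fbp2, the muscle form of fructose bisphosphatase, averaged 693 ± 52.2 counts in PnocCre and 1005 ± 95.6 in Wildtype (DESeq2 log2 fold change -0.54, adjusted p 3.29e-04), without overlap and while the skeletal muscle markers were higher in PnocCre. Gpd1, which makes glycerol 3-phosphate, had 111252 ± 29125 and 182406 ± 18173 (-0.71, DESeq2 adjusted p 0.0096), also without overlap. Pck2, the mitochondrial relative of Pck1, stood at 0.53 (DESeq2 adjusted p 0.141) and Tpi1 at -0.33 (DESeq2 adjusted p 0.0738).

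**Figure D4:**
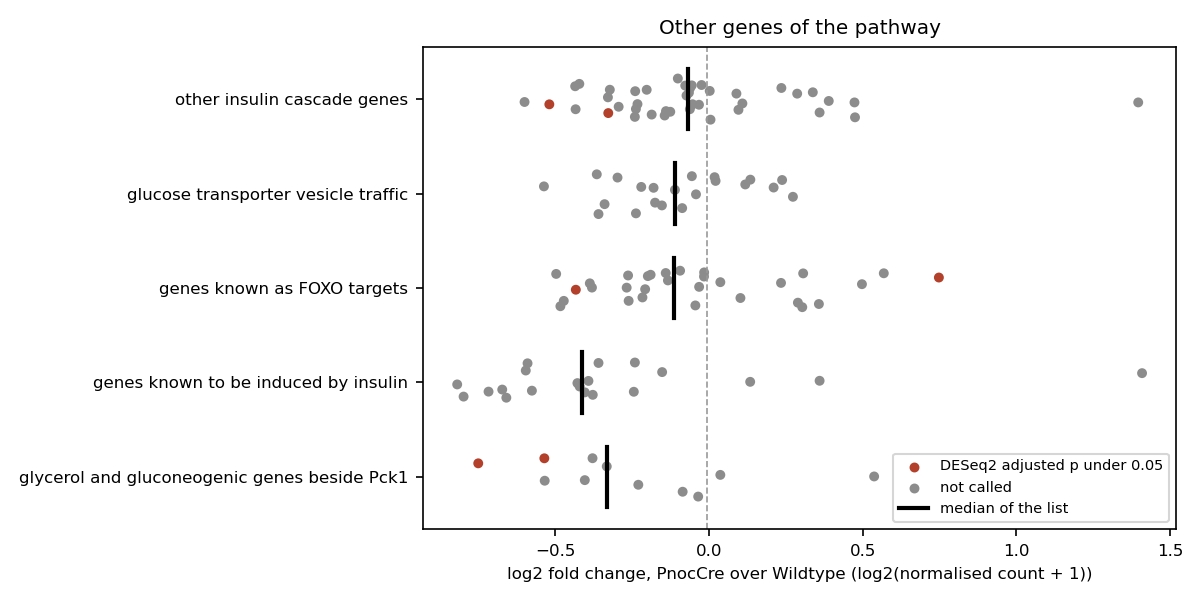
Log2 fold change of each gene in 5 lists of the pathway, PnocCre over Wildtype (horizontal axis), with the median of each list as a black bar, the median of all genes tested as a dashed line and genes called by DESeq2 in red. The list of genes known to be induced by insulin has the lowest median (-0.41), and the genes called by DESeq2 are 2 of the insulin cascade, 2 of the FOXO targets and 2 of the glycerol genes.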

How the data were processed

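Per the submitters' processing notes, HISAT2 2.0.5, featureCounts 1.5.0-p3 and DESeq2 were used on GRCm39. Libraries were made from polyA RNA with a dUTP strand-specific protocol, per the labels' protocols. Neither the gene annotation nor whether counting used strand is given in the sources used here. The deposited table holds a signal per gene and library, which the authors made by dividing read counts by 1 size factor per library. Whole reads were recovered, with 100% of values whole at a tolerance of 0.01 reads. From the authors' own comparison the deposited log2 fold changes and p-values of the members were copied. The deposited gene length was used only for levels per kb. Genes that overlap Insr, Irs2, Pik3r1, Pik3ip1 or Foxo1 had at most 13.2 normalised counts.

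The main test was limma-trend with robust moderation on log2(value + 1), over 15301 genes whose mean reached 10, 2-sided, with Benjamini-Hochberg adjustment over all of them at 0.05. Fold changes on this scale understate those of low genes. On recovered reads DESeq2, edgeR and limma-voom were run, DESeq2 over all genes with its own filter. R 4.3.3 was used with DESeq2 1.42.0, limma 3.58.1 and edgeR 4.0.16.

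The members and lists were chosen with earlier results of these data known. Named genes are the members, the 4 genes of each list with the smallest limma p, 8 genes given by name, and per member the 3 nearest genes with a mean of at least 50. Nearest genes, predicted names left out, were ranked by the root mean square difference of log2 levels, each centred over 10 libraries. Some genes that this rule names are not reported here. Pik3r2 was chosen after its values were seen, as a relative of a member. Promoters are from RefSeq (GRCm38.p6), 250 bases before each start, and 8 of 10 members matched.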

Additional observations from a re-analysis of the deposited data

Results flagged for a closer look

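In 20 groups of 5 libraries (10 genes in PnocCre and in Wildtype), 2 held a library far from the others on the log2 scale, where chance gives about 1 in 20. Both belong to Pik3ip1. PnocCre replicate 2 had 389 normalised counts, and the gap to the next PnocCre library was 0.724 of the group's range. Wildtype replicate 1 had 125, with a gap of 0.734 of the range. In PnocCre replicate 2 the lymphocyte markers were also highest (mean log2 level 8.86), while in Wildtype replicate 1 they stood at 3.25, within the Wildtype range. The part of lymphocytes in either value was not tested.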

How the results depend on the processing

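No paired analysis was possible because the labels give no numbers shared between the groups. Every limma, voom and edgeR setting run called 0 members. DESeq2 called 575 genes (368 higher, 207 lower) and 1 member, Pik3ip1, and library weights called 53 genes and 0 members, with 1 FOXO target and 1 glycerol gene. With a term for runs of library numbers limma called 2 genes and DESeq2 449. Leaving out 1 library gave 0 to 1 genes with limma (1 without PnocCre replicate 3) and 216 to 745 with DESeq2 (292 without PnocCre replicate 2, and 216, 273 and 241 without Wildtype replicate 2, 4 and 5), which called 0 to 1 members (0 without PnocCre replicate 1 or 2 or Wildtype replicate 2, 3, 4 or 5). With PnocCre replicate 2 and Wildtype replicate 1 both left out DESeq2 called 284 genes. Among limma fits that leave out 1 library the log2 fold changes ran from -0.032 to 0.069 for Insr, -0.37 to 0.25 for Irs1, -0.059 to 0.13 for Foxo1 and -0.018 to 0.17 for Foxo3, and those of the other 6 members kept their sign (Pik3ip1 1.13 to 1.84, Akt2 -0.45 to -0.26, Irs2 0.017 to 0.74, Pik3r1 -0.69 to -0.027, Trarg1 -0.38 to -0.15, Pck1 -0.66 to -0.31). The median of the members ran from -0.18 to 0.075, that of FOXO targets from -0.16 to -0.046, glycerol genes -0.36 to -0.19, insulin-induced genes -0.57 to -0.30, vesicle genes -0.19 to -0.077 and cascade genes -0.12 to -0.053. Irs1 stood at 0.094 with edgeR, 0.069 with DESeq2 and 0.25 with limma and the term for runs of library numbers. With the skeletal muscle mean as a covariate the median of the members was -0.50, against -0.034 without it, and Insr stood at -0.14, Irs2 at -0.63, Foxo1 at -0.25 and Foxo3 at -0.30, Irs1 at -0.68, Pik3r1 at -0.82 and Pck1 at -1.08, while Pik3ip1 was 1.84 (adjusted p 0.164). Foxo1 was -0.044 with limma when PnocCre replicate 2 and Wildtype replicate 1 were both left out. The cause of these changes was not tested. With 5 libraries a group, the intervals of Irs1, Irs2 and Pik3r1 are wide, and the fewest reads behind any member's value were 26.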
